A study of Mus musculus with 26 samples.

Results

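The genes described here are 10 members of the Notch pathway: the receptors Notch1 and Notch3, the ligands Jag1, Jag2 and Dll4, and the target genes Hey1, Hey2, Heyl, Hes1 and Nrarp. They were taken by symbol, and 10 of the 21031 genes in the deposited normalised table carried these symbols. Poly(A) RNA of mesenteric arteries, the small arteries that supply the gut, was sequenced in 26 libraries from male mice aged 8 weeks. The mice carried changes in Panx1, which encodes the pannexin 1 channel. Wild-type mice labelled WT (3 libraries) were compared with mice labelled Panx1 KO, a global knockout (3 libraries). Mice labelled Y198F+/+ (3 libraries) were set against controls labelled Y198F-/- (3 libraries). S205A+/+ mice (4 libraries) were set against S205A-/- controls (4 libraries), and Y308F+/+ mice (3 libraries) against Y308F-/- controls (3 libraries). The labels describe the controls as littermates or wild type without saying which applies to which line, and they do not give the mouse strain. Replicates are described as vascular trees, 3 per group, while the S205A line has 4 libraries per group, so whether each library is a separate animal is not given. P-values measure the spread between these libraries.

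Notch receptors are activated by ligands on a neighbouring cell. Proteases then free the receptor's intracellular part, which enters the nucleus and joins the DNA-binding protein RBPJ to switch on genes of the Hes and Hey families. In arteries, Notch1 and Dll4 are best known from endothelium, and Notch3 and its target Heyl from smooth muscle, while Jag1 is made by both layers. Nrarp encodes a small target protein that feeds back to limit Notch signalling.

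The libraries held between 14.9 and 23.6 M (mega) counted reads. Panx1 had 11 to 27 reads in the knockout libraries and 61 to 96 in the WT libraries, but as few as 16 in an S205A control. Smooth muscle (7 genes) and endothelial (10 genes) markers were all detected in every library, so the tissue label held in all 8 groups. Library names split the libraries into 9 whose number begins with 22, called the 22 series here, and 17 others. What this number stands for is not given. All Y198F libraries and no Y198F control belong to the 22 series, so mutation and series cannot be told apart in that comparison. The S205A line has both kinds in both groups. Controls 1 and 2 of the S205A line stood apart by their summed endothelial markers, given in CPM, the reads of a gene scaled to the size of its library. This sum was 1463 CPM in S205A control 1 and 10855 CPM in S205A control 2, and Y308F control 1 reached 10620 CPM. In whole-tissue RNA, fewer cells of a type and less RNA per cell cannot be told apart.

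Promoter windows of 300 bases, from 250 bases before to 50 after the RefSeq gene start, were found in RefSeq (GRCm38.p6) for 7 of the 10 genes. They were searched on both strands for TGGGAA, the core of the site that RBPJ binds. The windows of Hey2 and Dll4 are shown because the first is the one member window that holds the motif, and the second because Dll4 had the highest correlation of the 10 genes with the endothelial markers, given below. Letters in capitals mark the motif. The Hey2 window matched chr10:30718730-30719029 on the minus strand of GRCm39, and the Dll4 window matched chr2:119156015-119156314 on the plus strand.
Hey2: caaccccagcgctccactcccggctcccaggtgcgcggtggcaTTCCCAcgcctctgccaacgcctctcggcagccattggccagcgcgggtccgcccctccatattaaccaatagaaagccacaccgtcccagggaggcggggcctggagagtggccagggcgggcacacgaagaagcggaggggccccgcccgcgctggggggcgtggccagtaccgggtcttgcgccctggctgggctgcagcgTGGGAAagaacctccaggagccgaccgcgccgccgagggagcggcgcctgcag
Dll4: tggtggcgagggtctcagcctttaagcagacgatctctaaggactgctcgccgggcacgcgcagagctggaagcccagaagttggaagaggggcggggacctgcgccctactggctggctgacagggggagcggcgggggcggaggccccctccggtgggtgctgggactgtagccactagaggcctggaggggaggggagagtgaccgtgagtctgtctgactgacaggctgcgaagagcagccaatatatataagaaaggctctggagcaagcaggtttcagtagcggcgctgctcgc

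Hey2, a transcriptional repressor, had the motif at 2 places, starting 207 bases before the RefSeq start in the reverse orientation and 3 bases before it in the gene's own orientation. The RefSeq start is not the outermost start in GENCODE: it lies 49 bases inside the Hey2 gene as annotated there, 95 bases inside Dll4 and 12841 bases inside Notch1. The motif nearer the start is thus within the GENCODE gene. Among 32851 windows of this length, 25.6% held the motif at least once and 3.79% held it 2 or more times. A match of these letters is a description and no evidence of binding, and the windows of Notch1, Notch3, Jag1, Jag2, Dll4 and Nrarp lack only these letters in these 300 bases.

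In GRCm39 with GENCODE vM39 all 10 are protein-coding genes. Of the receptors, Notch1 lies at chr2:26347915-26406675 and Notch3 at chr17:32339794-32385893, both on the minus strand. The ligand genes are Jag1 at chr2:136923373-136958693 and Jag2 at chr12:112871421-112893437 on the minus strand, and Dll4 at chr2:119156170-119166443 on the plus strand. On the minus strand are the targets Hey1 at chr3:8726956-8732385 and Hey2 at chr10:30708350-30718828. On the plus strand are Heyl at chr4:123127349-123143682, Hes1 at chr16:29882134-29886643 and Nrarp at chr2:25070770-25073351.

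All 10 genes were counted in every library. The least counted was Nrarp with 94 to 469 reads per library, and the most counted was Notch3 with 7368 to 25394. Per kilobase of annotated exon, which allows levels of different genes to be compared, the mean over the 26 libraries was highest for Notch3, at 76.2 CPM per kb. Heyl followed at 73.5, Jag1 at 66.2 and Hey2 at 41.4 CPM per kb. The remaining genes lay lower: Jag2 at 16.2, Hes1 at 15.4, Dll4 at 10.5, Notch1 at 9.36, Hey1 at 5.46 and Nrarp at 4.75 CPM per kb. Jag1 was above Hey2 in 26 of 26 libraries, and Hey2 above Jag2 in 25. By contrast Notch3 was above Heyl in only 12 of 26 libraries, and Jag2 above Hes1 in 14, so these neighbours had no fixed order. Notch3 thus stood far above Notch1, and Jag1 above the other ligands, on the per-length scale.

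The genes also differed in how much they varied between libraries. Hey2 was the steadiest, with a coefficient of variation of 9.56% over the 26 libraries and a range of 163 to 243 CPM. Jag1 varied by 17.6%. Nrarp (45.3%), Jag2 (40.9%), Dll4 (35.4%), Notch3 (34.5%) and Notch1 (32.7%) varied most. Group means of one gene differed from 1.20-fold, between the highest and lowest of the 8 groups for Hey2, to 2.00-fold for Nrarp. For 9 of the genes no 2 neighbouring groups in the order of means were free of overlap. The exception was Nrarp, whose Y198F controls (9.74 to 17.3 CPM) lay above the WT libraries (7.71 to 8.93 CPM). Of all 12896 genes with a mean of at least 1 log2 CPM, 10.7% had such a pair of groups, so 1 of 10 is near the background.

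**Figure D1:**
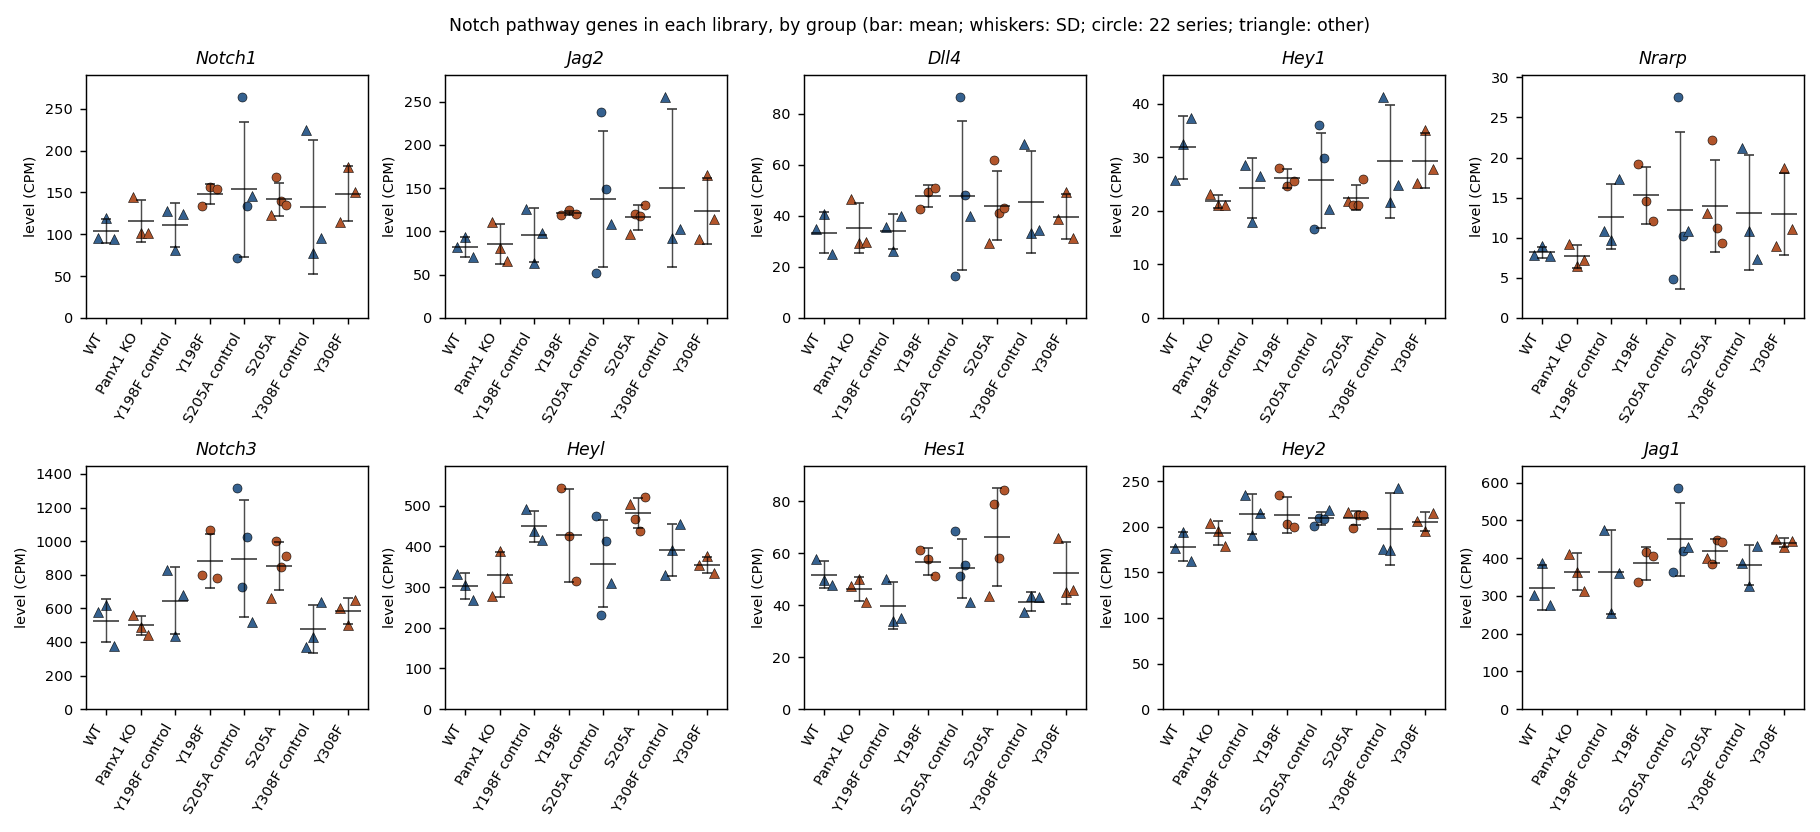
Level of each gene in CPM (vertical axis) in the 26 libraries, by group; circles are libraries of the 22 series, triangles the others, bars the mean and whiskers the SD. Dll4 spans 16.4 to 86.8 CPM within the S205A controls alone, while Hey2 stays between 163 and 243 CPM in all libraries.

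Of the 10 genes, 7 share exon bases with a gene annotated on the opposite strand in GENCODE vM39, Nrarp over 2051 of its 2582 exon bases. Whether the authors' counting used strand is not given in the sources used here, so reads of such pairs cannot be told apart.

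In the knockout against WT, 0 of the 10 genes passed the threshold of an adjusted p of 0.05 in edgeR's quasi-likelihood test, against 0.0309% of all 16193 genes tested (5 genes). At an unadjusted p under 0.05, 1 of 10 passed, against 11.2% of all genes. The largest difference was in Hey1, a repressor of the same family as Hey2. Hey1 measured 25.7, 32.5 and 37.4 CPM in the WT libraries and 23.1, 21.0 and 21.2 CPM in the knockout libraries. Every knockout library lay below every WT library. The log2 fold change was -0.53 (SE 0.149) with an adjusted p of 0.339 (edgeR). Without 1 library it ran from -0.67 to -0.40, and its adjusted p over the alternatives ran from 0.0567 to 0.730.

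Groups did not overlap for this gene alone among the 10, and for 18.8% of all genes. Means were 21.8 ± 1.14 CPM in the knockout and 31.9 ± 5.84 CPM in WT (SD, n = 3 each). The endothelial marker sum overlapped between the groups, at 3887 to 5161 CPM in the knockout and 3511 to 5559 CPM in WT. The lymphatic endothelial sum did not, at 119 to 227 against 239 to 322 CPM, and its part in the result was not tested. The receptors moved little: Notch1 had a log2 fold change of 0.18 (SE 0.164) and Notch3 of -0.06 (SE 0.191). The median over the 10 genes was 0.09, and over all genes 0.01.

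The Y198F libraries held the only members past the threshold. Dll4, the endothelial ligand, and Hes1, a repressor that is a direct Notch target, rose, while Notch1 and Notch3 had values in the same direction that did not pass. These 2 of 10 genes compare with 15% of all 16050 genes tested (2411 genes), so the share is near the background, and at an unadjusted p under 0.05 the count was 3 of 10, against 29.1% of all genes. Both rested on few libraries and on the choice of controls, as given below.

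Dll4 measured 35.8, 26.3 and 39.8 CPM in the Y198F controls and 42.9, 49.5 and 51.0 CPM in the Y198F libraries. All mutant libraries were above all controls. The means were 47.8 ± 4.34 and 34.0 ± 6.95 CPM (SD, n = 3 each). On the log2 scale the fold change was 0.49 (SE 0.148), at an adjusted p of 0.0473 (edgeR). Hes1 measured 50.2, 34.0 and 35.3 CPM in controls and 61.3, 57.9 and 51.3 CPM in mutants. Here too the groups were separate, with control 1 just below the lowest mutant. Hes1 means were 56.8 ± 5.11 and 39.8 ± 9.01 CPM (SD, n = 3 each), a log2 difference of 0.51 (SE 0.152) at an adjusted p of 0.0458 (edgeR).

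Notch1 was also without overlap, at 128, 81.3 and 124 CPM in controls and 134, 156 and 155 CPM in mutants. Its log2 fold change was 0.41 (SE 0.160, adjusted p 0.118, edgeR). With Dll4 and Hes1 this makes 3 of 10 genes whose groups did not overlap, against 34.2% of all genes. Notch3, which marks arterial smooth muscle, had 828, 435 and 677 CPM in controls and 796, 1068 and 783 CPM in mutants. These groups overlapped, and the log2 fold change was 0.44 (SE 0.230, adjusted p 0.251, edgeR). Hey2 (-0.01), Heyl (-0.08), Jag1 (0.08) and Hey1 (0.09) had log2 fold changes near 0. The median of the 10 genes was 0.31, with a median over all genes of -0.0028.

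Leaving out any 1 of the 6 libraries ended the call for Dll4 (adjusted p 0.0519 to 0.131), while its log2 fold change stayed between 0.33 and 0.61. Hes1 stayed past the threshold without Y198F control 1 (adjusted p 0.00953) or Y198F library 3 (0.0416), and lost it without any of the other 4 libraries, with log2 fold changes from 0.40 to 0.71. DESeq2 on the same 6 libraries called both genes (adjusted p 0.0364 for Dll4 and 0.0288 for Hes1). Against the S205A controls of the 22 series, Dll4 had a log2 fold change of -0.09 and Hes1 of -0.05, with 0 of 10 genes past the threshold. Adjusting for the series across all 8 groups gave -0.04 and -0.12. In both of these fits 0% of all genes passed as well. The endothelial marker sum was 5583 to 5966 CPM in Y198F libraries and 4250 to 5374 CPM in controls, without overlap, and 4 of its 10 markers rose, beside 15% of all genes called. Of the smooth muscle markers 2 of 7 rose and 1 fell, and of the Schwann cell markers 2 of 7 fell. With the log2 of the endothelial sum as a term, an alternative chosen after seeing the data, Dll4 had 0.13 (adjusted p 0.747, edgeR) and Hes1 0.37 (adjusted p 0.443, edgeR). In that fit 0 of 10 genes passed, beside 2.2% of all genes. As the endothelial sum did not overlap between mutants and controls, the fit cannot tell it apart from mutation and series. The fibroblast sum (1994 to 2996 against 3086 to 4025 CPM) and the Schwann cell sum (106 to 119 against 125 to 203 CPM) were lower without overlap, and their part in the result was not tested.

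In the authors' deposited table for Y198F 0 of the 10 genes passed, and 0.0158% of its rows did (3 of 18991), so that this count says nothing particular about the 10 genes. Its log2 fold changes are -0.01 for Dll4, 0.06 for Hes1, -0.07 for Notch1 and -0.03 for Notch3. Over all its rows these fold changes match those computed from the counts against the S205A controls, to within 0.00016, and not those against the labelled Y198F controls, which differ by up to 7.51. Of the 10 genes, 0 passed in the authors' other deposited tables too, beside 0.134% of the rows for the knockout, 0.495% for S205A and 0% for Y308F. In the authors' deposited table for the knockout the log2 fold change of Hey1 is -0.54 (adjusted p 0.545).

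**Figure D2:**
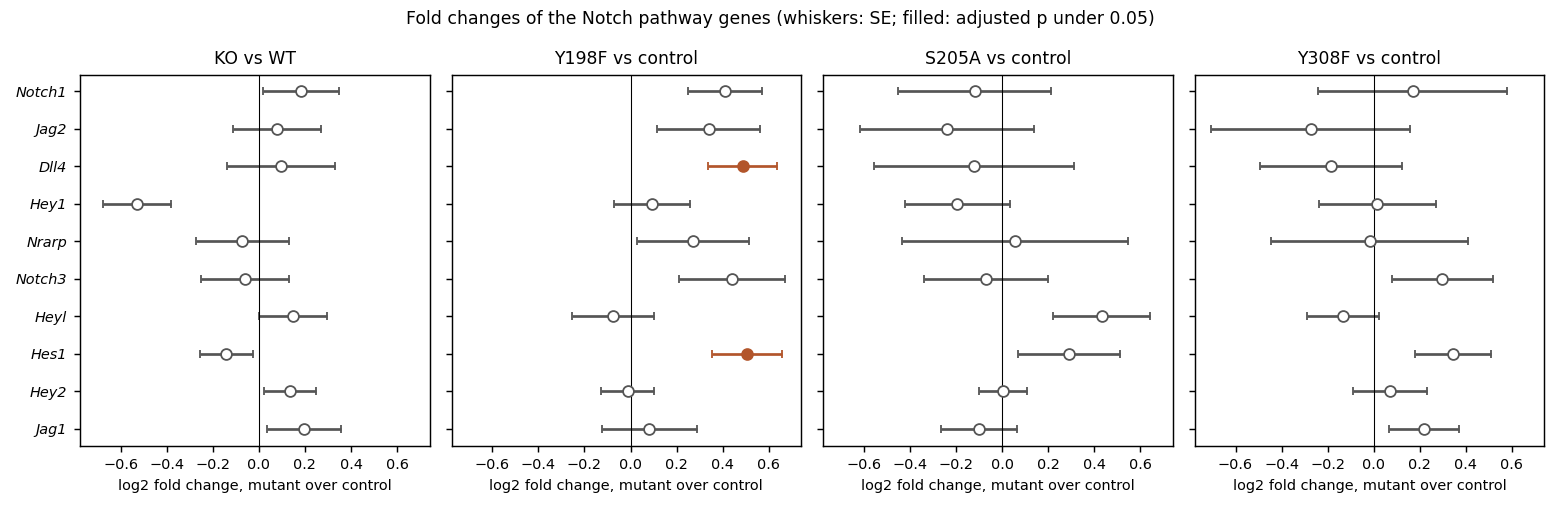
Log2 fold change of each gene, mutant over its labelled control (horizontal axis), in the 4 comparisons, with whiskers for the SE; filled points have an adjusted p under 0.05 in edgeR. Dll4 (0.49) and Hes1 (0.51) in Y198F are the filled points, and the SE of Nrarp is 0.490 in S205A and 0.427 in Y308F.

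S205A and Y308F had no member past the threshold, nor any gene among all those tested (0% of 15709 and 0% of 16037). At an unadjusted p under 0.05 the counts were 0 of 10 in each, against 2.87% and 4.4% of all genes. In S205A the largest difference was in Heyl, a Notch target of smooth muscle. It measured 474, 232, 412 and 310.5 CPM in the controls and 503, 466, 438 and 520.4 CPM in the mutants. Controls 2, 3 and 4 lay below all mutants, and control 1 fell inside their range. The log2 fold change was 0.43 (SE 0.209, adjusted p 1.00, edgeR), with 0 of 10 members and 1.81% of all genes free of overlap. The fibroblast marker sum did not overlap in this line, at 2134 to 6111 CPM in mutants and 1487 to 2025 CPM in controls; its part in the result was not tested.

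For Dll4 the S205A controls were spread more widely than the mutants, at 16.4, 86.8, 48.3 and 39.9 CPM, and the mutants measured 29.4, 62.1, 41.3 and 43.3 CPM. The SE of its log2 fold change (-0.12) was 0.434, so a difference as large as the 0.49 in Y198F was within 2 SE in this line. Notch1 (-0.12, SE 0.333), Jag2 (-0.24, SE 0.379) and Nrarp (0.06, SE 0.490) had similar errors, whereas Hey2 (0.00, SE 0.105) was measured more tightly.

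Y308F showed a separation in Hes1 alone, at 37.5, 43.7 and 43.2 CPM in controls and 66.1, 45.0 and 45.8 CPM in mutants. Mutant library 1 stood well above the other 2, which lay just above the controls. The log2 fold change was 0.35 (SE 0.166, adjusted p 0.940, edgeR), and 10.7% of all genes were free of overlap. The marker sum of enteric and sympathetic neurons was without overlap too, at 39.1 to 45.4 CPM in mutants and 53.8 to 61.6 CPM in controls, and its part in the result was not tested. Among the ligands, Jag2 and Dll4 had their highest value of this line in 1 control library. Jag2, a ligand of endothelium, measured 256, 92.8 and 103 CPM in the Y308F controls and 91.5, 166 and 114 CPM in the mutants. Control 1, the library with the endothelial sum of 10620 CPM, was above every mutant and the other controls were inside or near their range. Dll4 had the same shape, at 68.4, 33.3 and 34.7 CPM in controls and 38.7, 49.2 and 31.3 CPM in mutants. Their log2 fold changes were -0.27 (SE 0.434) and -0.19 (SE 0.309). Jag1, the ligand with the highest level per kilobase, was closer between libraries, at 387, 326 and 433 CPM in controls and 449.8, 429 and 446 CPM in mutants (0.22, SE 0.151). The part of the endothelial sum in these results was not tested.

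Nrarp, the feedback target, had the lowest counts and the largest spread. Its 3 WT libraries lay at 7.86, 8.93 and 7.71 CPM and its knockout libraries at 9.27, 6.47 and 7.24 CPM, which overlapped. The S205A controls ran from 4.87 to 27.6 CPM and covered every mutant of that line, at 13.0, 22.2, 11.2 and 9.35 CPM. Hey2 was the opposite, with S205A controls at 201, 209, 209 and 218 CPM and mutants at 216, 199, 212 and 213 CPM.

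Median log2 fold changes of the 10 genes were -0.09 in S205A and 0.04 in Y308F, beside -0.01 and -0.03 over all genes tested.

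Whether 2 mutations differed in their effect was tested for 6 pairs of lines, and 0 of 10 genes passed in any pair. Of all genes, 11.6% passed between knockout and Y198F, 5.7% between Y198F and Y308F, 0.0116% between knockout and Y308F and 0.00562% between knockout and S205A. The other 2 pairs, Y198F with S205A and S205A with Y308F, had 0%. Hes1 came nearest, between knockout and Y198F, with a difference of log2 fold changes of -0.65 (SE 0.203, adjusted p 0.0516, edgeR). At an unadjusted p under 0.05, 2 of 10 genes passed in that pair (26.4% of all genes) and 1 of 10 between knockout and Y308F (3.1%). In the other 4 pairs 0 of 10 passed, beside 4.16% of all genes for knockout with S205A, 14.3% for Y198F with S205A, 22.3% for Y198F with Y308F and 3.49% for S205A with Y308F.

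The S205A line allowed the library series to be measured apart from genotype. With genotype in the fit, 0 of 10 genes passed for the series, against 5.74% of all genes (902 of 15709), and 2 of 10 had an unadjusted p under 0.05, against 21.5% of all genes, so that share is near the background. Those were Notch3, higher in the 22 series by 0.71 on the log2 scale (SE 0.237, adjusted p 0.122, edgeR), and Hes1, higher by 0.63 (SE 0.175, adjusted p 0.0740, edgeR). Dll4 differed by 0.53 (SE 0.545). The contrast rests on 2 libraries outside the 22 series, 1 in each genotype, and the Dll4 value is smaller than its SE.

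Within groups, the 10 genes fell into sets that varied together. Log2 CPM was centred within each group and series, and Pearson's r was taken over the 26 libraries, which share depth and scaling. The 2 libraries that were alone in their group and series carry no deviation. Notch1 and Jag2 had r = 0.95, Notch1 and Dll4 0.91, Jag2 and Dll4 0.91, and Dll4 and Nrarp 0.86. Hey1 was at 0.89 with Jag2, 0.86 with Notch1, 0.74 with Dll4 and 0.70 with Nrarp. Without S205A controls 1 and 2 these values were 0.94, 0.86, 0.81, 0.74, 0.82, 0.79, 0.53 and 0.52, in the same order. Nrarp was at 0.85 with Notch1 and 0.79 with Jag2, and at 0.72 and 0.63 without those libraries. Notch3 had its highest values with other genes, r = 0.62 with Hey2, 0.57 with Hes1, 0.51 with Heyl and 0.35 with Jag1. This order depended on the same 2 libraries: without them the values were 0.74, 0.50, 0.32 and 0.75, so that Jag1 was then highest.

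Against the summed endothelial markers, r was 0.97 for Dll4, 0.92 for Jag2, 0.91 for Notch1, 0.85 for Nrarp and 0.76 for Hey1. Without S205A controls 1 and 2 it was 0.94, 0.87, 0.89, 0.74 and 0.59. Jag1 was at 0.54 (0.34 without those libraries), Hey2 at 0.05 (-0.04) and Heyl at -0.61 (-0.23). Against the summed smooth muscle markers, r was 0.82 for Notch3, 0.74 for Heyl and 0.67 for Hes1. These became 0.76, 0.60 and 0.63 without the same libraries. Hey2 was at 0.49 with the smooth muscle sum. Without those libraries it was at 0.64, then above Heyl and Hes1, so this order depended on them too. Of all 12896 genes, 9.02% had r above 0.7 with the endothelial sum, where 5 of the 10 genes lay, and 9.03% had r above 0.6 with the smooth muscle sum, where 3 of them lay. These limits differ between the sums, were not set in advance and lie just below Hey1 and Hes1. The counts are thus a description and no test. Without S205A controls 1 and 2, Hey1 (0.59) was under the first limit and Hey2 (0.64) above the second. The sums themselves had r = -0.55, and -0.19 without S205A controls 1 and 2.

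**Figure D3:**
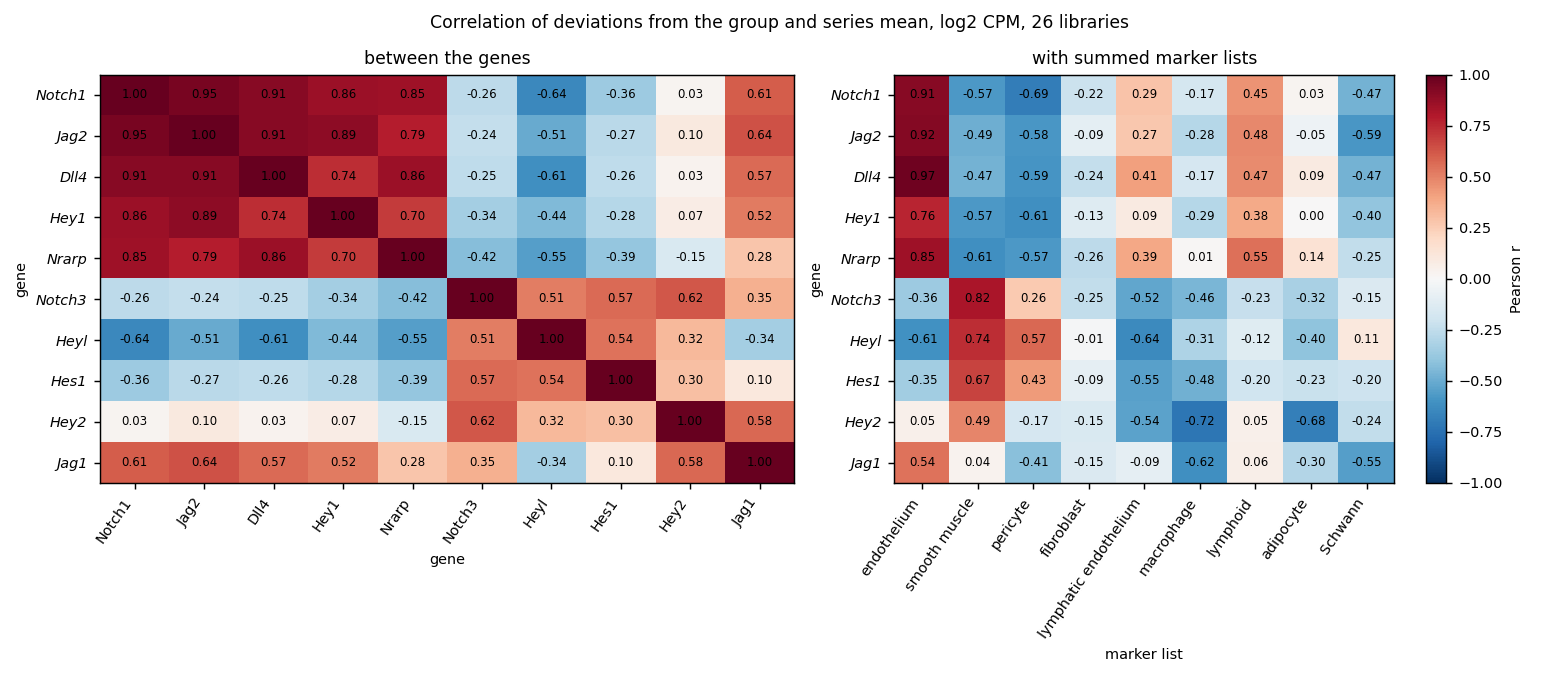
Pearson r of log2 CPM deviations from the group and series mean over 26 libraries, between the genes (left) and with summed marker lists (right). Notch1, Jag2, Dll4, Hey1 and Nrarp form a block with r from 0.70 to 0.95 (0.52 to 0.94 without S205A controls 1 and 2). Notch3, Heyl, Hes1 and Hey2 have their highest marker r with smooth muscle.

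The S205A controls 1 and 2 are the libraries with the lowest and highest endothelial sum, and they entered the correlations above, so their values are a description and no separate support. Endothelial markers were 7.42-fold higher in control 2 than in control 1, and smooth muscle markers were at 0.539 of the level. Nrarp was 5.66-fold higher, at 4.87 and 27.6 CPM. Dll4 was 5.30-fold, Jag2 4.61-fold, Notch1 3.73-fold and Hey1 2.17-fold higher. Hey2 hardly differed, at 1.04-fold, while Hes1 was at 0.750, Notch3 at 0.551 and Heyl at 0.490 of the level in control 1. Notch1 measured 71.0 and 265 CPM in controls 1 and 2, and Notch3 1317 and 725 CPM. Over all libraries Notch1 and Notch3 had r = -0.26, and 0.08 without these 2.

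Dividing each level by a marker sum, a scale chosen after seeing the data, narrowed the spread of some genes and widened that of others. Dll4 went from a coefficient of variation of 35.4% to 17.8% per endothelial sum, Jag2 from 40.9% to 20.9%, Nrarp from 45.3% to 26.9% and Notch1 from 32.7% to 23.7%. Per endothelial sum the spread widened for Hey1 from 23.5% to 36.8%, for Jag1 from 17.6% to 47.1% and for Hey2 from 9.56% to 50.9%. It also widened for Heyl to 65.6%, for Hes1 to 71.8% and for Notch3 to 104%. S205A control 1, the library with the lowest endothelial sum, carried much of this widening. Notch3 was at 900.05 per mille of the sum there and at 196.3 in S205A control 3, the next highest. Hey2 was at 137.4 per mille there and at 49.6 in knockout library 2, the next highest. Jag1, Heyl and Hes1 were also far highest in S205A control 1, and Hey1 only slightly. The spread without this library was not computed. Per smooth muscle sum, Notch3 went from 34.5% to 24.5%, Hes1 from 24.0% to 19.5% and Heyl from 21.5% to 18.4%, while the spread widened to 15.3% for Hey2, 24.6% for Jag1, 37.2% for Hey1, 45.0% for Notch1, 46.0% for Dll4, 54.8% for Jag2 and 55.1% for Nrarp.

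**Figure D4:**
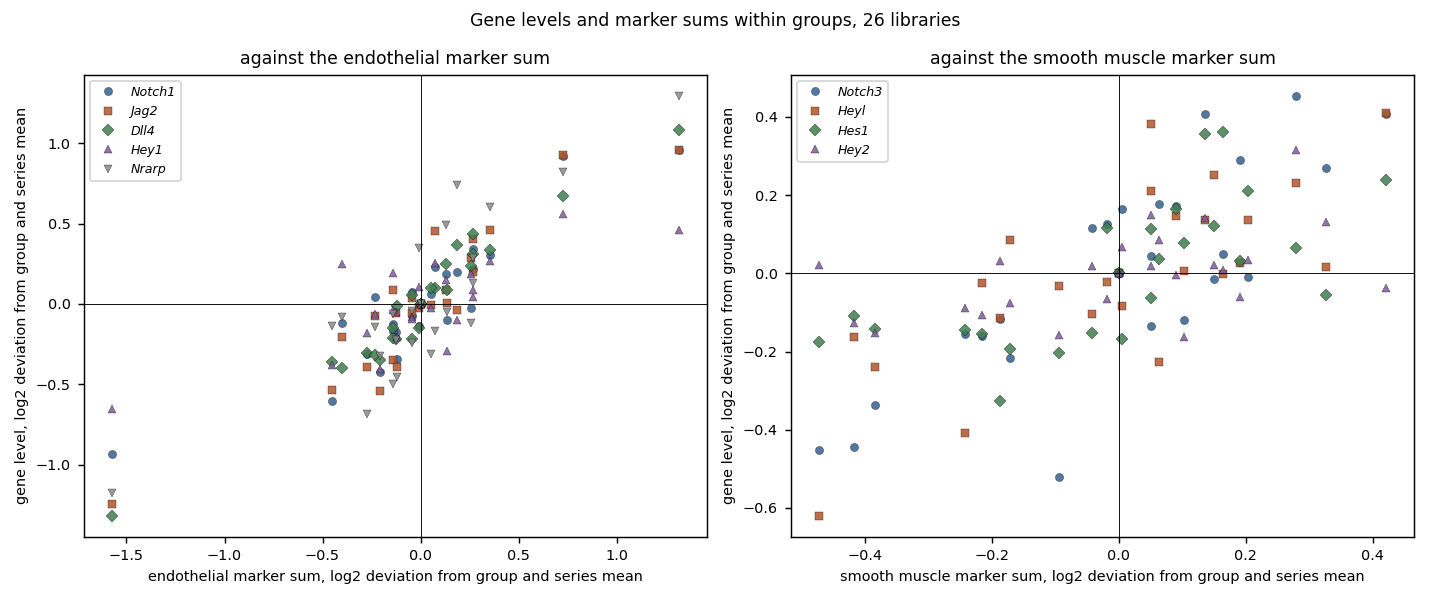
Log2 deviation of each gene from its group and series mean (vertical axis) against that of the endothelial (left) or smooth muscle (right) marker sum (horizontal axis), 26 libraries. The outermost points on the left are S205A control 1, where Dll4 is at -1.32, and S205A control 2, where it is at 1.08.

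The genes most like each member by the same centred r, out of 12896, were Ppm1f for Notch1 (0.96), Olfml2a for Notch3 (0.95), Gopc for Jag1 (0.91), Sox13 for Jag2 (0.98) and Ltbp4 for Dll4 (0.98). For the targets they were Klf3 for Hey1 (0.93), Snx13 for Hey2 (0.84), Rnd2 for Heyl (0.89), Msrb1 for Hes1 (0.89) and Smad3 for Nrarp (0.95). Hey2 had the lowest of these values.

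A list of 65 further Notch pathway genes was read in the same fits. In the knockout 0 of 58 tested passed, in S205A 0 of 57 and in Y308F 0 of 58, with 7, 4 and 2 at an unadjusted p under 0.05, beside 11.2%, 2.87% and 4.4% of all genes. In Y198F 11 rose and 4 fell out of 58 (27 at an unadjusted p under 0.05), beside 15% of all genes (29.1% unadjusted) and with the same link to series. The smallest adjusted p was that of Gja4, which encodes a gap junction protein, at 441 ± 12.7 CPM against 223 ± 30.4 CPM (SD, n = 3 each; log2 fold change 0.98, SE 0.121, adjusted p 0.000586, edgeR). Hes6 (1.20), the trafficking gene Epn1 (0.52), the ubiquitin ligase gene Dtx2 (0.81) and Mfng (0.85), which encodes a glycosyltransferase acting on Notch receptors, rose as well, and Dtx4 fell by 1.14 on the log2 scale. Of the glycosyltransferases 3 of 5 rose, of the proteases 2 of 9 rose and 1 fell, and of the nuclear complex 1 of 7 fell. Of the repressor partners 1 of 4 rose, of the ubiquitin and trafficking genes 2 of 15 rose and 2 fell, and of the further targets 3 of 12 rose. None of the 2 receptors, 2 ligands and 2 secreted modulators tested passed. Of 59 of these genes, 18 had r above 0.7 with the endothelial sum and 4 had r above 0.6 with the smooth muscle sum. These are 30.5% and 6.78% of them, beside 9.02% and 9.03% of all genes. The first share includes Egfl7 (r = 0.92), which is itself among the summed endothelial markers. Both limits are those used above, which were not set in advance. Notch4, the other endothelial receptor, was at 0.97 with the endothelial sum and was named after its value was seen. Gja4 was at 0.02 with the endothelial sum and 0.55 with the smooth muscle sum.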

How the data were processed

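Per the series text, the authors mapped paired reads of 150 bases to GRCm39 with STAR 2.7.9a, counted them per gene with featureCounts (Rsubread 2.20.0) and compared groups with DESeq2 1.46.0. The deposited counts are whole reads per gene and were the input of every test here. The deposited normalised signal equals the counts over DESeq2 size factors and was used to find the members. The authors' deposited tables of log2 fold changes and adjusted p-values were read for the members, and their fold changes were compared over all rows with those recomputed from the counts. Levels are CPM with TMM scaling over 26 libraries. Each mutant was tested against its labelled controls with edgeR 4.0.16 (R 4.3.3): TMM, filterByExpr, robust quasi-likelihood fit, Benjamini-Hochberg adjustment over all genes tested and a threshold of 0.05. The fits were tested on simulated data. Correlations used log2 CPM with a prior count of 2. Gene positions and exon lengths come from GENCODE vM39. Alternatives were DESeq2 1.42.0, its size factors, no filter, all groups in one fit, a replicate block, single libraries left out and the library series. Some alternatives were chosen after seeing the data: leaving out S205A controls 1 and 2, the endothelial marker sum as a term for Y198F, and levels per marker sum. All 10 members are named, and of the further list up to 6 genes past the threshold with the smallest adjusted p; for likeness the genes with the highest r. The members and lists were chosen with earlier results of these data known.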

Additional observations from a re-analysis of the deposited data

Results flagged for a closer look

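Hey1 in S205A library 4 measured 25.9 CPM, away from the other 3 S205A libraries at 21.1 to 21.8 CPM. Its gap to the nearest of them was 0.868 of the group's range, above Dixon's 95% critical value for 4 libraries. Of 20 gene and group combinations tested this was the only one to stand out, and chance gives about 1 in 20.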

How the results depend on the processing

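The number of the 10 genes past the threshold in Y198F, 2 with edgeR, was 2 with DESeq2 (17.8% of all genes), 1 with DESeq2's size factors in edgeR (15%), 4 without the filter on low counts (11%) and 0 with all 8 groups in one fit (4.93%). It was 0 with the series as a term (0%), against the S205A controls of the 22 series (0%) and with the endothelial marker sum as a term (2.2%). Leaving out single libraries gave 0 to 1 (5.43% to 12.8%). The replicate block gave 1 in Y198F (11%), but same-numbered libraries did not deviate together (r from -0.28 to 0.23 over the lines). Such values cannot exclude a pairing, and the main fits used none. For the series in the S205A line the count of 0 became 2 with DESeq2 (11% of all genes), 1 without the filter (3.07%) and 1 with all groups (11.7%). Of 520 values of single genes under an alternative, 432 kept direction and side of the threshold, 70 reversed, 16 lost the threshold in the same direction and 2 gained it; the cause was not tested. Over Dll4 and Hes1 in Y198F the threshold was lost in 20 of 28 values, 4 of them among those reversed.

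With the replicate block, S205A values reversed to 0.021 for Notch1, 0.0020 for Notch3 and 0.054 for Dll4, and Y308F Nrarp to 0.067; without the filter that was 0.00017. With the series as a term, Y198F log2 fold changes were -0.26 for Notch3, -0.046 for Jag2, -0.036 for Dll4, -0.15 for Hey1, 0.061 for Hey2 and -0.12 for Hes1. Against the S205A controls of the 22 series they were -0.085 for Notch1, -0.21 for Notch3, -0.25 for Jag1, -0.28 for Jag2, -0.085 for Dll4, -0.083 for Hey1, 0.039 for Hey2, 0.20 for Heyl and -0.045 for Hes1. The endothelial marker sum as a term gave -0.33 for Jag1, -0.14 for Jag2, -0.29 for Hey1 and -0.061 for Nrarp. Without S205A controls 1 and 2, S205A values were 0.016 for Notch1, 0.14 for Notch3 and -0.026 for Hey2.

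Leaving out single libraries reversed further values that had not passed. In the knockout the ranges were -0.024 to 0.30 for Notch1, -0.25 to 0.077 for Notch3, -0.16 to 0.23 for Jag2, -0.17 to 0.26 for Dll4 and -0.25 to 0.033 for Nrarp. In Y198F they were -0.12 to 0.33 for Jag1, -0.086 to 0.22 for Hey1, -0.10 to 0.060 for Hey2 and -0.29 to 0.11 for Heyl. In S205A they were -0.36 to 0.27 for Notch1, -0.26 to 0.17 for Notch3, -0.19 to 0.043 for Jag1, -0.51 to 0.16 for Jag2, -0.41 to 0.33 for Dll4, -0.36 to 0.0062 for Hey1, -0.014 to 0.028 for Hey2 and -0.26 to 0.67 for Nrarp. In Y308F they were -0.10 to 0.79 for Notch1, -0.53 to 0.36 for Jag2, -0.37 to 0.24 for Dll4, -0.16 to 0.36 for Hey1, -0.013 to 0.25 for Hey2 and -0.37 to 0.52 for Nrarp.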
